A study of Oryza coarctata with 5 samples.

Results

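*Oryza coarctata* (also called *Porteresia*) is a wild rice relative of saline tidal mud. The transcripts described here were selected on RPKM values (reads per kilobase of transcript, relative to the reads of the library), because their level stood well above the control in plants submerged in salt water while neither salt nor submergence alone had moved them far. They are 100 of 152367 assembled transcripts. A transcript was eligible if its RPKM was above 0 in all 5 libraries and at least 5 in submergence in 450 mM NaCl. In addition, its log2 ratios to the water control at 450 mM NaCl and in submergence in water both had to lie between −1 and 0.5, with 0.5 added to each RPKM. Of 15303 eligible transcripts, the 100 with the highest log2 ratio of submergence in 450 mM NaCl to control were taken. The selection thus used 4 of the 5 libraries, and their differences are given as a description without a test. The 700 mM NaCl library entered only through the requirement of a value above 0.

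RNA came from mature plants collected in nature, and every group is of this wild material, with no line or genotype named. The 5 groups were kept in water (the control), in 450 mM NaCl, in 700 mM NaCl, submerged in water, or submerged in 450 mM NaCl, which is called combined stress below. Each group was 1 library, so the spread between plants is unknown and no p-value is given. The protocol speaks of different tissues without naming them, and how long the treatments lasted is not given in the sources used here. Read totals solved from the steps between RPKM values were about 56638113 reads in the control, 59818916 and 58431827 at the lower and higher salt dose, 78997383 in submergence and 74867541 in combined stress. All intervals below are 95% intervals of read counting and leave out differences between plants. Transcript numbers were not paired with gene names or sequences here, so functions and tissue markers could not be read.

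Salt and flooding reach a plant by different routes. Salt outside the root withdraws water osmotically and loads tissues with sodium and chloride, which salt-tolerant grasses exclude, store in vacuoles or secrete through leaf glands. Submergence slows gas exchange, so that oxygen runs short and the gaseous hormone ethylene accumulates, and rice relatives answer with fermentation, elongation or quiescence. A tidal species meets both at once, and the question put to these libraries is which transcripts stood high in the double treatment without standing high in either part of it.

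The 100 transcripts had a median of 4.80 RPKM in the control, 5.11 at 450 mM NaCl, 4.54 at 700 mM NaCl, 4.90 in submergence and 11.7 in combined stress. The first 4 medians lie close together and the last stands apart. All 100 transcripts had their highest value in combined stress, which the selection favours. The log2 ratio of combined stress to control ran from 0.94 to 2.002 with a median of 1.15, and 76 of the 100 reached a 2-fold difference. Over all transcripts at RPKM 1 or more in either library 3.65% were higher by this rule, and since the ratio chose the members their count shows nothing beyond the choice. In whole tissue, a higher transcript share can come from more RNA per cell or from more cells of a type, which cannot be told apart here. Together the 100 transcripts made up 0.136% of the summed RPKM of the control and 0.320% of that of combined stress. The 5 most abundant held 36.0% of their summed RPKM in combined stress.

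**Figure D1:**
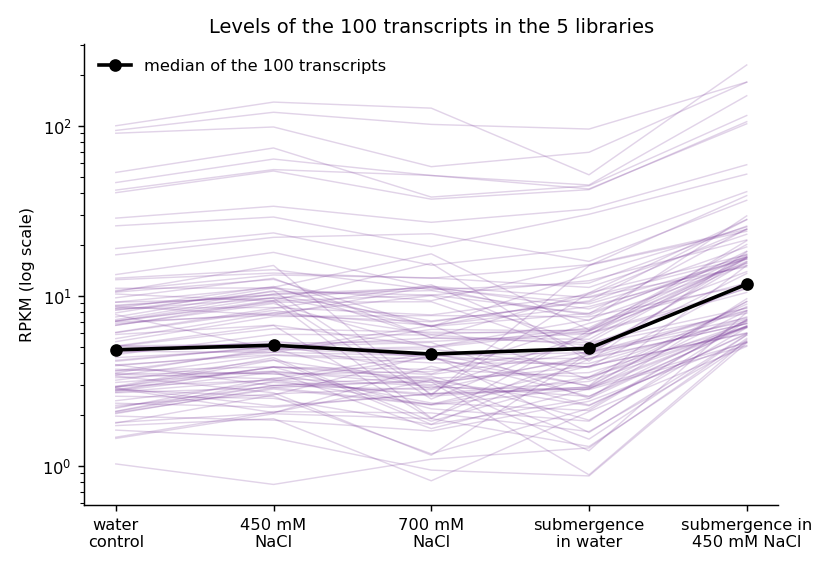
RPKM of each of the 100 transcripts (thin lines, log axis) in the 5 libraries, with the median as a thick black line. The median lies between 4.54 and 5.11 in the first 4 libraries and at 11.7 in submergence in 450 mM NaCl, while single lines also lie lower or higher at 700 mM NaCl and in submergence.

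The transcript with the highest ratio was Pc_TC114987 (517 nt). It had 1.02 RPKM in the control, 0.776 at 450 mM NaCl, 1.09 at 700 mM NaCl, 1.27 in submergence and 5.61 in combined stress. The first 4 values lay close to each other, and combined stress alone stood out. The ratio of combined stress to control was 5.47 (interval 3.72 to 8.31), from 217 against 30 reads. It was also the 1 member to reach 4-fold on the scale with 0.5 added (log2 ratio 2.002), so that all other members differed from control by less.

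Pc_TC095547 (404 nt), the next in rank, behaved differently in the library the selection did not rank. Its RPKM was 10.6 in the control, 15.1 at 450 mM NaCl, 2.58 at 700 mM NaCl, 15.0 in submergence and 38.8 in combined stress. Both single stresses stood above control, close to the upper limit of the window, and 700 mM NaCl stood below it. Combined stress was 3.67-fold above control (3.19 to 4.23).

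Pc_TC123235 (279 nt) had 2.03 RPKM in the control, 2.88 at 450 mM NaCl, 3.19 at 700 mM NaCl, 1.23 in submergence and 7.995 in combined stress, a ratio to control of 3.95 (2.69 to 5.96). Pc_TC117892 (241 nt) stood at 4.32, 4.86, 2.84, 5.94 and 15.5 RPKM in the same order, a ratio of 3.59 (2.70 to 4.84). The former was lowest in submergence and the latter at 700 mM NaCl, so these short transcripts share the high value in combined stress and little else.

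Among abundant transcripts the highest ratio belonged to Pc_TC024923 (1610 nt). It had 46.3 RPKM in the control, 63.6 at 450 mM NaCl, 50.9 at 700 mM NaCl, 44.8 in submergence and 149.97 in combined stress. Combined stress was 3.24-fold above control (3.13 to 3.35), on 18077 against 4221 reads, which makes it the most precisely counted of the top 6. Both salt doses stood slightly above the control and submergence slightly below.

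Pc_TC033141 (2030 nt) had 8.64 RPKM in the control, 7.69 at 450 mM NaCl, 7.02 at 700 mM NaCl, 9.32 in submergence and 27.99 in combined stress, a ratio to control of 3.24 (3.02 to 3.48). The next number, Pc_TC033140 (2017 nt), ranked directly after it at 4.60, 5.41, 4.28, 2.95 and 15.1 RPKM in the same order, a ratio of 3.27 (2.98 to 3.61). Their lengths and their ratios in combined stress were close, but submergence in water lay slightly above control for the former and below it for the latter. If their numbers and lengths reflect copies of 1 gene, reads could be shared between them, which was not tested.

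**Figure D2:**
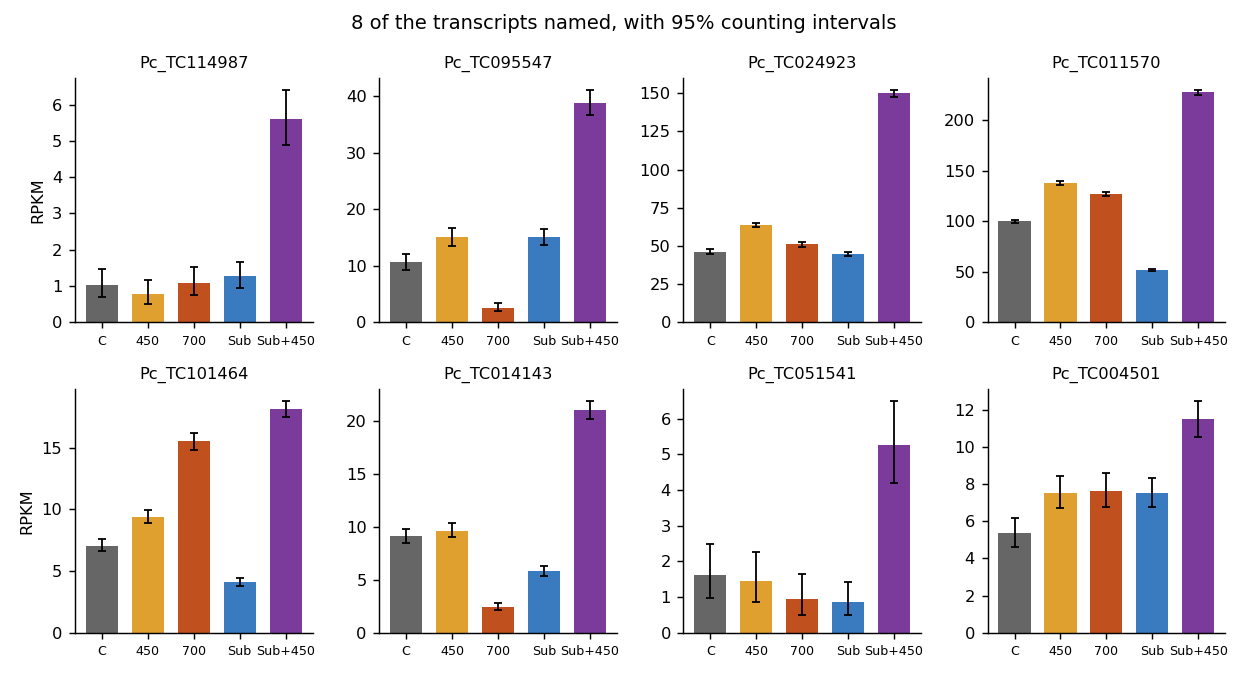
RPKM of 8 transcripts in the 5 libraries (C, control; 450 and 700, mM NaCl; Sub, submergence in water; Sub+450, submergence in 450 mM NaCl); bars are single libraries and error bars are 95% Poisson intervals of the reads. The last bar is highest in each panel, and the level at 700 mM NaCl ranges from 2.58 RPKM against a control of 10.6 for Pc_TC095547 to 15.5 against 7.07 for Pc_TC101464.

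The label of a response to combined stress alone was checked against counting error. At 450 mM NaCl 50 of the 100 transcripts stood above the control by more than counting error and 3 below it, where 17.8% and 28.5% of all transcripts at RPKM 1 or more did, and 21.9% and 29.7% of the eligible. In submergence 29 stood above and 18 below, against 38.8% and 31.2% of all transcripts and 29.7% and 40.3% of the eligible. For 37 members neither single stress was above control beyond counting error, as for 51.4% of the eligible transcripts, and for 33 this held at 700 mM NaCl as well, as for 44.6% of the eligible. The other 67 stood above control in at least 1 other treatment beyond counting error. The 33 had a median of 61 reads in the control and the 67 a median of 297, so a smaller difference could pass in the latter, and the 33 are not shown to be without a response. These intervals also leave out the scaling between libraries. Median-of-ratios scaling, with log2 factors of −0.16 at 450 mM NaCl and −0.10 at 700 mM NaCl relative to control, would raise the salt ratios. The counts of this paragraph under that scaling are not given. Combined stress stood above control, 450 mM NaCl and submergence beyond counting error in all 100, and above 700 mM NaCl too in 98. Of all transcripts 28.6%, 37.6%, 24.8% and 39.3% stood higher in these 4 contrasts, and the selection favours all of them.

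The single stresses were not evenly spread inside the window. The log2 ratio of 450 mM NaCl to control had a median of 0.27 over the members and −0.03 over the eligible transcripts. In 25 members it was 0.4 or more, near the upper limit, as in 2.38% of the eligible transcripts. The log2 ratio of submergence to control had a median of 0.10 over the members and −0.04 over the eligible transcripts, and 10 members reached 0.4 where 7.23% of the eligible did. All these ratios share the control library with the ranking, so a low control value raises them together. Behind combined stress, the next highest library was 450 mM NaCl in 46 members, 700 mM NaCl in 24, submergence in 24 and the control in 6. The ranking favours low control values, which holds the last count down, and shares over the eligible transcripts were not computed.

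Combined stress was also set against each single stress. It was at least 2-fold above 450 mM NaCl in 41 members (7.66% of all transcripts at RPKM 1 or more in either library), with a median log2 ratio of 0.90. It was at least 2-fold above submergence in 64 members (4.88% of all), with a median of 1.18. Over the highest of control, 450 mM NaCl and submergence the log2 ratio of combined stress ran from 0.49 to 1.78 with a median of 0.82. These contrasts were also fixed in part by the choice of members.

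A stricter form of the pattern asks that combined stress be at least 2-fold above each of the other 4 libraries. Of the 100 members 26 met it, among them all of the top 6. In the whole series 62 of 24216 transcripts above 0 in all libraries and at RPKM 5 or more in combined stress did so (0.256%), and 36 of these were not members. Among the eligible transcripts the members were the 26 that met it (0.17%). Of the 36, 28 lay above the window at 450 mM NaCl and 16 in submergence, some of them in both, and 2 lay below it in submergence. By the same measure 809 transcripts stood 2-fold above every other library in submergence in water (3.29%), 306 at 700 mM NaCl (1.32%), 43 in the control (0.179%) and 2 at 450 mM NaCl (0.00868%). Transcripts particular to the combined library were thus fewer than those particular to submergence or to 700 mM NaCl, with 1 library each and no test. They were more than those particular to the control or to 450 mM NaCl. The measure is not alike across libraries: combined stress was set against both of its parts, while 700 mM NaCl had no submerged partner.

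Few of the transcripts that stood high in combined stress met the selection. Among transcripts above 0 in all libraries and at RPKM 5 or more in combined stress, 878 were at least 2-fold above control, and 76 of these (8.66%) were eligible. For 676 of the 878 submergence in water was already at a log2 ratio of 0.5 or more, for 216 this was so at 450 mM NaCl, and for 90 in both. The opposite pattern was rarer. With RPKM of at least 5 in the control, 40 of 15543 transcripts inside the window were 2-fold higher in combined stress, and 22 of 14686 inside the mirrored window were 2-fold lower.

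Departure from additivity was measured as the log2 ratio of combined stress to control minus the sum of the log2 ratios of 450 mM NaCl and of submergence. It ran from 0.13 to 2.19 over the 100 transcripts, with a median of 0.93 and quartiles of 0.63 and 1.28. The eligible transcripts had a median of 0.13 and all 82365 transcripts at RPKM 1 or more in any of the 4 libraries a median of 0.07. A departure of at least 1, which is 2-fold above the product of the 2 single ratios, was seen in 45 members. Among all transcripts 5.8% and among the eligible 1.22% showed one. At a limit of 2, which is 4-fold, there were 2 members, beside 0.72% of all transcripts. The 2 were also the only eligible transcripts past that limit (0.0131%). The choice of members draws on all 4 libraries of this measure, so nothing can be read from these shares about the members.

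For 89 members the interval of the departure lay above 0, as for 41.7% of the eligible transcripts, and for 11 it included 0. In those 11 the level in combined stress could not be told from the product of the 2 single ratios at this depth. All 11 had departures under 0.5, as had 15 members in all. The intervals leave out the scaling between libraries. Under median-of-ratios scaling the median departure of the members was 0.82 instead of 0.93, and the counts of intervals above 0 under it are not given.

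**Figure D3:**
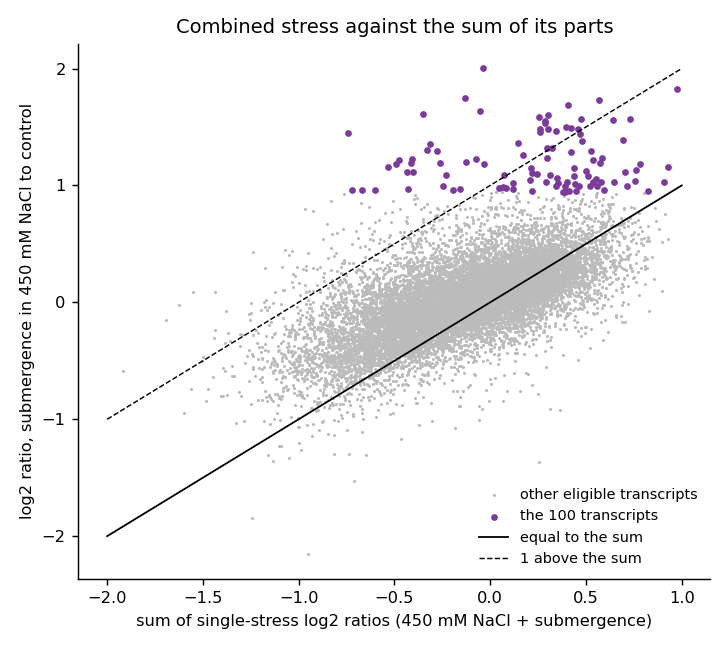
Log2 ratio of submergence in 450 mM NaCl to control (vertical axis) against the sum of the log2 ratios of 450 mM NaCl and of submergence to control (horizontal axis), for the 100 transcripts (purple) and the other eligible transcripts (grey). The solid line marks equality and the dashed line a departure of 1; 45 purple points lie on or above the dashed line, and the rest lie between the lines.

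The largest departure was that of Pc_TC051541 (218 nt), which had 1.62 RPKM in the control, 1.46 at 450 mM NaCl, 0.942 at 700 mM NaCl, 0.871 in submergence and 5.27 in combined stress. All 3 single treatments had values below the control, on 19, 12 and 15 reads, but their counting intervals overlapped that of the control. Its departure was 2.19, or 2.75 (interval 1.55 to 3.95) without the added 0.5, on 20 reads in the control and 86 in combined stress. Pc_TC114987 followed with a departure of 2.04, or 2.54 (1.65 to 3.43) without the added 0.5. Pc_TC033140 had 1.96, or 2.12 (1.90 to 2.34), on far more reads. The deeper count makes the third the narrowest interval of the 3.

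At the other end, Pc_TC004501 (645 nt) had 5.37 RPKM in the control, 7.54 at 450 mM NaCl, 7.64 at 700 mM NaCl, 7.52 in submergence and 11.5 in combined stress. All 3 single treatments stood at nearly the same height above control, and the combination stood where the 2 single ratios multiplied would put it. Its departure was 0.13 and the interval without the added 0.5 was −0.20 to 0.44. Pc_TC104313 (349 nt), at 2.88, 4.17, 3.09, 3.84 and 6.05 RPKM in the same order, also had 0.13. Pc_TC101236 (292 nt) had 7.498 RPKM in the control, 10.7 at 450 mM NaCl, 2.64 at 700 mM NaCl, 10.4 in submergence and 17.4 in combined stress, a departure of 0.23.

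The departure followed the signs of the single stresses, as its definition implies. In 53 members both single log2 ratios were at or above 0, and their departures ran from 0.13 to 1.31 with a median of 0.64. In 30 members salt was at or above 0 and submergence below it, with a median departure of 1.26. In 9 members salt was below 0 and submergence at or above it, with a median of 1.09, and in 8 both were below 0, with a median of 1.63. Of the eligible transcripts 14.3%, 30.7%, 31.4% and 23.6% fell in these classes.

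A group of 15 members had a log2 ratio of submergence to control of −0.5 or lower, a limit chosen after the values were seen, as had 16.7% of the eligible transcripts. A low submergence value raises the departure by definition. Their departures ran from 1.13 to 2.19 with a median of 1.56, and in 14 of them 450 mM NaCl was above the control. Among all members with submergence below 0, salt was at or above 0 in 30 and below it in 8. These 2 classes held 30.7% and 23.6% of the eligible transcripts. The most abundant of the 15 was Pc_TC011570 (2388 nt), which also had the highest RPKM of all members in combined stress. It had 99.9 RPKM in the control, 137.6 at 450 mM NaCl, 126.8 at 700 mM NaCl, 51.4 in submergence and 227.6 in combined stress. Submergence in water was thus the lowest library and submergence in salt the highest. Its departure was 1.68 with an interval of 1.64 to 1.73, on 13509 reads in the control and 40693 in combined stress. In all, 18 members were lower with submergence in water and higher with submergence in salt, both beyond counting error, as 5.23% of the eligible transcripts were. The matching pattern for salt, lower at 450 mM NaCl without submergence and higher with it, was seen in 3 members and 5.55% of the eligible transcripts. All 100 members met the second condition of either pattern, which the selection favours, so these shares are not alike. By the first condition alone 40.3% of the eligible transcripts were lower in submergence and 29.7% at 450 mM NaCl.

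The next most abundant members in combined stress were Pc_TC009572 and Pc_TC149418. Pc_TC009572 (2567 nt) had 93.8 RPKM in the control, 119.9 at 450 mM NaCl, 101.8 at 700 mM NaCl, 95.5 in submergence and 180.5 in combined stress, a ratio of 1.92 (1.89 to 1.96). Pc_TC149418 (229 nt) stood at 90.3, 98.3, 57.4, 69.8 and 180.4 RPKM in the same order, a ratio of 1.998 (1.87 to 2.14). The former was close to control at 700 mM NaCl and in submergence, and the latter was lowest at 700 mM NaCl.

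The base level of the members was low. Control RPKM ran from 1.02 to 99.9 with quartiles of 2.86 and 8.49, against a median of 13.1 for the eligible transcripts. It was under 5 in 51 members and under 20 in 91, where 5.89% and 67.0% of the eligible transcripts lay. The minimum of RPKM 5 in combined stress sets part of this, since a transcript with a low control value could only be eligible if its ratio was high. Of eligible transcripts with a control RPKM under 5, 5.66% were members, against 0.427% of those from 5 to 20 and 0.178% of those at 20 or more. Among the members the size of the difference varied less with the base level. The ranking on this ratio left only log2 ratios of 0.94 or more in every class, which fixes this likeness in part. The median log2 ratio of combined stress to control was 1.20 in the 51 members under 5, 1.13 in the 40 from 5 to 20 and 1.11 in the 9 at 20 or more, and the median departures were 1.02, 0.92 and 0.89.

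**Figure D4:**
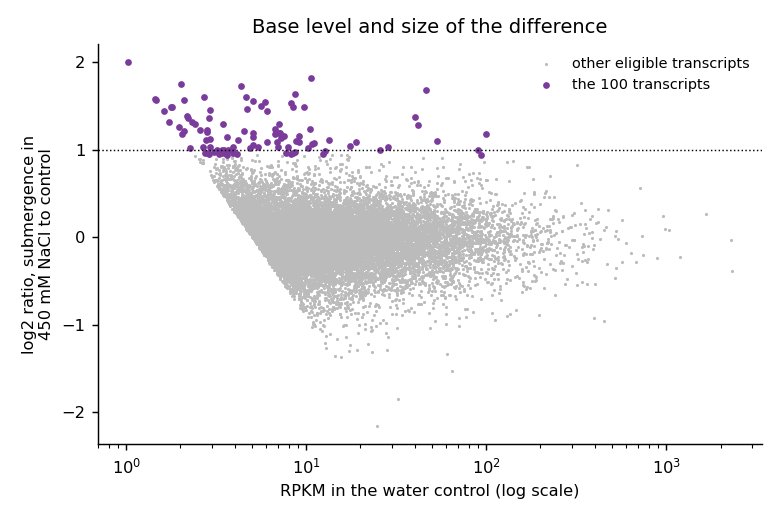
Log2 ratio of submergence in 450 mM NaCl to control against RPKM in the control (log axis) for the 100 transcripts (purple) and the other eligible transcripts (grey); the dotted line marks 2-fold. The slanted lower left edge is the minimum of RPKM 5 in combined stress, and 91 of the 100 purple points lie below a control RPKM of 20.

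Low levels went with fewer reads. The median number of reads per member was 218.5 in the control, 274.5 at 450 mM NaCl, 176 at 700 mM NaCl, 317.5 in submergence and 619 in combined stress, and the lowest was 12, at 700 mM NaCl. For 3 members the interval of the ratio of combined stress to control reached below 1.5. Recovered lengths ran from 201 to 4885 nt with a median of 584 nt, against 1079 nt for the eligible transcripts. Under 300 nt were 27 of the members and 15.7% of the eligible transcripts, and 37 of the members and 52.5% of the eligible were 1000 nt or longer. Length took no part in the rule, but short transcripts have fewer reads and vary more by counting, and the part of this in the length difference was not tested.

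The limit of the list did not fall at a gap. Pc_TC009572 and Pc_TC068614, the last inside, and Pc_TC009618 and Pc_TC112286, the first outside, all had a log2 ratio of combined stress to control of 0.94. Pc_TC068614 stood at 3.62 RPKM in the control and 7.41 in combined stress, and Pc_TC009618 at 5.35 and 10.7. At 700 mM NaCl the former stood at 3.44 RPKM and the latter at 9.92.

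The level at 700 mM NaCl asks whether stronger salt without submergence reached the height of the double treatment. For most members it did not, but the ranking on combined stress fixed this in part. The level at 700 mM NaCl is therefore also set against the control. The log2 ratio of 700 mM NaCl to control had a median of −0.02 over the 100 transcripts, with quartiles of −0.34 and 0.32 and a range from −1.84 to 1.12. The eligible transcripts had a median of −0.13 with quartiles of −0.32 and 0.07, and all transcripts at RPKM 1 or more in either library a median of −0.08 with quartiles of −0.41 and 0.30. The members' median lay near that of both sets, with a spread wider than that of the eligible transcripts and like that of all.

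By the 2-fold rule 2 members were higher at 700 mM NaCl than in the control and 6 were lower, with 5 and 6 after median-of-ratios scaling. Pseudocounts of 0.1 and 1 gave 4 and 1 higher. Of all transcripts 4.52% were higher and 4.88% lower, and of the eligible transcripts, which are more abundant, 0.301% and 0.85%. Against all transcripts these counts are near the background, and against the eligible they are above it. Within 0.5 of the control on the log2 scale lay 70 members, with 12 above and 18 below, where 2.81% and 9.97% of the eligible transcripts lay. Beyond counting error 32 members were higher and 28 lower, against 23.3% and 32.1% of all transcripts and 18.3% and 45.5% of the eligible. The control library also took part in the ranking, and a low control value raises both ratios.

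Set against 450 mM NaCl, which shares no control, 700 mM NaCl was lower by 2-fold in 8 members and higher in 0. Of all transcripts 3.67% were lower and 4% higher by this rule, and of the eligible 0.366% and 0.32%. Beyond counting error 11 members were higher at the larger dose and 39 lower, while 24.4% and 23.7% of all transcripts and 17.3% and 39.3% of the eligible were. The 450 mM NaCl value was also bounded by the rule. In 47 members the level at 700 mM NaCl lay below both the control and 450 mM NaCl, in 26 between them and in 27 above both. The share of the eligible transcripts in each of these classes was not computed. The members' levels thus showed no common order with salt dose. This describes the members only, since the order was not compared with that of other transcripts.

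**Figure D5:**
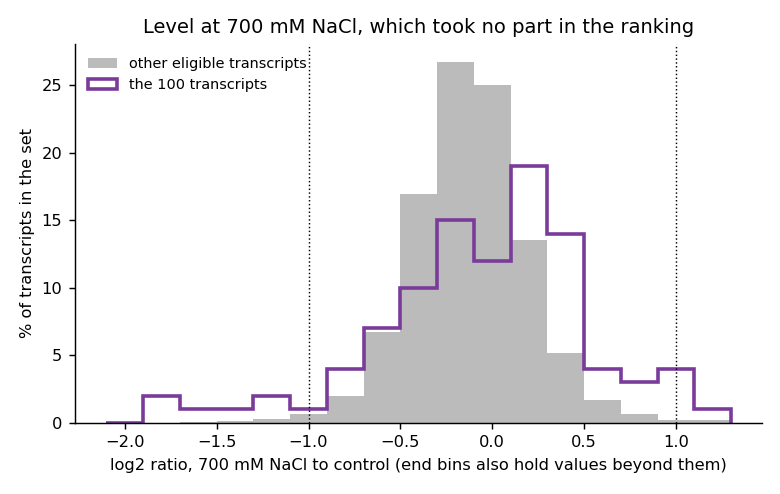
Distribution of the log2 ratio of 700 mM NaCl to control over the 100 transcripts (purple outline) and the other eligible transcripts (grey), each as a percentage of its own set; dotted lines mark 2-fold. Both centre near 0, and the 100 transcripts reach further to both sides, with 6 members 2-fold lower and 2 members 2-fold higher.

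The 2 members higher at 700 mM NaCl were Pc_TC118244 and Pc_TC101464. Pc_TC101464 (2163 nt) had 7.07 RPKM in the control, 9.37 at 450 mM NaCl, 15.5 at 700 mM NaCl, 4.12 in submergence and 18.1 in combined stress. Its level stood higher at each larger dose of salt, was lowest in submergence and was nearly as high at 700 mM NaCl as in combined stress. The ratio of 700 mM NaCl to control was 2.19 (2.03 to 2.38). Pc_TC118244 (218 nt) had the same order of libraries at 1.78, 2.61, 4.47, 1.57 and 5.88 RPKM, with a ratio of 2.51 (1.51 to 4.31) on 57 against 22 reads. Pc_TC150483 (3558 nt), the next highest, stood at 1.796, 2.04, 3.84, 2.27 and 5.95 RPKM, a log2 ratio of 0.92. These 3 thus stood above control at 700 mM NaCl without submergence. For Pc_TC118244 the levels at 700 mM NaCl and in combined stress could not be told apart by counting.

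The lowest at 700 mM NaCl was Pc_TC095547, whose level there was 0.244 of the control (0.181 to 0.325). Pc_TC014143 (1429 nt) had 9.16 RPKM in the control, 9.66 at 450 mM NaCl, 2.47 at 700 mM NaCl, 5.84 in submergence and 21.1 in combined stress, a ratio of 700 mM NaCl to control of 0.269 (0.230 to 0.315). Pc_TC019415 (1254 nt) stood at 6.69, 9.32, 1.91, 4.64 and 15.8 RPKM in the same order, a ratio of 0.286 (0.235 to 0.346). In these the stronger salt alone stood well below control while the weaker salt under water stood highest. The other 3 lower members were Pc_TC101236, Pc_TC014176 and Pc_TC143394, with log2 ratios of −1.35, −1.22 and −1.22.

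Combined stress stood at least 2-fold above 700 mM NaCl in 63 members, where 11.3% of all transcripts did, a contrast fixed in part by the ranking. The closest was Pc_TC083418 (237 nt), named here after its value was seen, at 17.6 RPKM at 700 mM NaCl and 20.01 in combined stress. The 26 members that met the stricter pattern had, for 700 mM NaCl against control, a median log2 ratio of −0.19, a median departure of 1.27 and a median control level of 4.46 RPKM. That pattern itself caps the value at 700 mM NaCl.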

How the data were processed

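Total RNA from mature plants was sequenced after mRNA library preparation, per the labels' protocols. Per the series text, the authors cleaned the reads with NGS QC Toolkit, mapped them to *Porteresia* transcripts and deposited RPKM per transcript. No mapper, version or assembly method is named there, nor how reads matching several transcripts were counted, so near-identical copies of a gene can share reads and are uncertain.

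RPKM was used as deposited, on the scale of log2(RPKM + 0.5), which understates differences of low transcripts. Read totals, lengths of at least 200 nt and whole reads were solved from the RPKM steps (152263 transcripts) and served for counting intervals only: exact Poisson for levels, Clopper-Pearson for ratios and a normal approximation on the log2 scale for departures. A few solved lengths and read numbers may be smaller by a whole factor. "Beyond counting error" means that the 95% interval of a ratio of RPKM excludes 1. With 1 library per treatment no test was run. The procedure was tested on simulated data. The named transcripts are the 6 highest in combined stress against control, the 3 highest and 3 lowest at 700 mM NaCl against control, the 3 most abundant in combined stress, the 3 largest and 3 smallest departures and those next to the limit of the list. Others are said to be chosen later or complete a short count. Members and comparisons were chosen with earlier results of these data known. Alternatives covered pseudocount, scaling, counting error, read minimum, RPKM minimum and window. Python 3.11.15, numpy 2.4.6, pandas 2.3.3 and scipy 1.17.1 were used.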

Additional observations from a re-analysis of the deposited data

Results flagged for a closer look

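Among the 100 transcripts, 18 were lower in submergence than in the control in water but higher in submergence than without it in 450 mM NaCl, each beyond counting error. Of the eligible transcripts 5.23% showed this pair of directions. All 100 members were higher in combined stress than at 450 mM NaCl beyond counting error, so the 18 are the members lower in submergence in water, and the choice of members fixed the other direction. Lower in submergence in water than in the control, whatever the other direction, were 40.3% of the eligible transcripts. Another 3 transcripts, Pc_TC033141, Pc_TC031626 and Pc_TC088220, were lower at 450 mM NaCl than in the control and higher in combined stress than in submergence, where 5.55% of the eligible transcripts were. All 100 members were higher in combined stress than in submergence too, and 29.7% of the eligible transcripts were lower at 450 mM NaCl than in the control. No member was in both the group of 18 and the group of 3. With 1 library per treatment, this difference in direction was not tested.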

How the results depend on the processing

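Of 66 recomputed values 48 kept their direction and stayed within the limits set for a like value. With a pseudocount of 0.1, 4 members were 2-fold higher at 700 mM NaCl and 5 departed by 2 or more, and with a pseudocount of 1 these were 1 and 0. Median-of-ratios scaling, whose log2 factors relative to control were −0.16 at 450 mM NaCl and −0.10 at 700 mM NaCl, gave 5 and 1. It also turned the median log2 ratio at 700 mM NaCl from −0.02 to 0.075, set the median departure at 0.82 and kept 63 of the 100 members when the rule was applied again. A minimum of RPKM 1 in combined stress kept 39 members, with 246 eligible transcripts 2-fold higher and 191 lower, and a minimum of 10 kept 54, with 45 and 12. A window from −1 to 1 kept 31 members, with 271 eligible transcripts 2-fold higher, and a window from −0.5 to 0.5 left 5 that were 2-fold lower. As reported, 76 eligible transcripts were 2-fold higher and 38 lower. Median-of-ratios scaling gave 55 and 26, which the limits still counted as like values. Wider windows and lower minimums admit more transcripts by construction; for the other shifts the cause was not tested. Without replicates only counting error could be measured, and members with fewest reads have the widest intervals. No paired analysis was possible because each treatment has 1 library.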

Other observations

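The numbers of the 100 transcripts were searched for neighbours, and 2 pairs of members had numbers at most 2 apart: Pc_TC033140 with Pc_TC033141 and Pc_TC130697 (205 nt) with Pc_TC130699 (303 nt), the latter pair with log2 ratios of combined stress to control of 1.09 and 1.32. Of 45 transcripts directly next to a member by number and at RPKM 5 or more in some library, 3 (6.67%) were 2-fold higher in combined stress than in the control, against 3.62% of all transcripts at that level. The median log2 ratio of the 45 was 0.04, against 0.06 for all. How many pairs chance would give was not computed, and what the order of the numbers reflects is not given in the sources used here.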
